A study of Mus musculus with 3 samples.

Results

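The transcription factors that mark or oppose the helper T cell lineages were followed across 3 cytokine conditions in activated CD4+CD25- T cells. They were Tbx21 and Eomes, Gata3, Foxp3 and Ikzf2, Bcl6 and Prdm1, Rora, and Nfil3, chosen by name. These 9 genes, of 18193 that could be named on the array, had 21 probe sets that carried no other gene symbol. Female mice of a BALB/c background, 6 to 8 weeks old, gave spleen and lymph node cells; they lacked Stat6 and T-bet, the product of Tbx21, so every condition shared both deletions. The labels give neither the number of mice nor whether they were pooled. All cultures received plate-bound anti-CD3 (5 µg/ml) and anti-CD28 (1 µg/ml) for 2 days. The cytokines added were TGFβ (5 ng/ml) alone, IL-6 and IL-23 (10 ng/ml each), or IL-6 (10 ng/ml) and TGFβ (5 ng/ml). A single array measured each condition (n = 1). There was therefore no replicate error and no test, and the ratios below describe 3 arrays. In such bulk RNA, fewer cells of a type and less RNA per cell cannot be told apart.

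A naive helper T cell takes up a lineage when cytokine receptors, through STAT and SMAD proteins, turn on a lineage factor. T-bet drives Th1 cells, GATA3 drives Th2 cells, FOXP3 drives regulatory T cells, BCL6 drives follicular helper cells, and RORα acts beside RORγt in Th17 cells. Many of these factors repress one another, as BCL6 and Blimp-1 (Prdm1) do. TGFβ alone favours Foxp3, whereas TGFβ with IL-6 favours Th17 cells, and IL-6 signals mainly through STAT3. The study used IL-6/TGFβ against TGFβ to find genes of Th17 polarization, and IL-6/TGFβ against IL-6/IL-23 to find genes that go with IL-10.

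Levels are quantile-normalized intensities in arbitrary units, listed first for TGFβ, then for IL-6/IL-23 and last for IL-6/TGFβ. The floor of the measurement, set from genes of unrelated tissues, lay at 44.3. Lower values are not told apart from background, and a ratio with 1 array there is a bound ("at least"). A gene was called higher or lower at 2-fold or more. The spread of the log2 ratio between probe sets of the same gene, the only error that could be estimated, had an SD of 0.23 for IL-6/TGFβ over TGFβ, 0.30 for IL-6/TGFβ set against IL-6/IL-23, and 0.31 between IL-6/IL-23 and TGFβ. It leaves out differences between cultures and arrays. Deposited medians were 35.8, 17.8 and 28.1. All 8 measured T cell markers were above the floor on all arrays, none of them 2-fold apart in any pair. Of 6 B cell markers 1, 0 and 2 were above it, of 4 stromal markers 1 on each array, and of 2 erythroid markers 0.

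Of the 9 factors, 6 were at least 2-fold apart in at least 1 comparison, as were 12.2% of 10029 genes above the floor. Between IL-6/TGFβ and TGFβ 6 were apart (5.13% of 9680 genes): Bcl6, Rora and Nfil3 were higher with IL-6/TGFβ and Eomes, Gata3 and Foxp3 lower, where 2.85% and 2.28% of genes were. Between IL-6/TGFβ and IL-6/IL-23 3 were apart (7.8% of 9878 genes). Foxp3 and Rora were higher with IL-6/TGFβ and Gata3 lower, against 4.01% and 3.79% of genes. Between IL-6/IL-23 and TGFβ 4 were apart (7.36% of 9769 genes), Bcl6 and Nfil3 higher with IL-6/IL-23 and Gata3 and Foxp3 lower, against 3.83% and 3.53%. All 9 could be read in each pair. The median size of their log2 ratios was 1.27, 0.58 and 0.71 in these comparisons, beside 0.23, 0.29 and 0.28 over all genes read. The 3 comparisons share arrays and are not independent of one another. Tbx21, Prdm1 and Ikzf2 were 2-fold apart in none of them after quantile normalization.

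**Figure D1:**
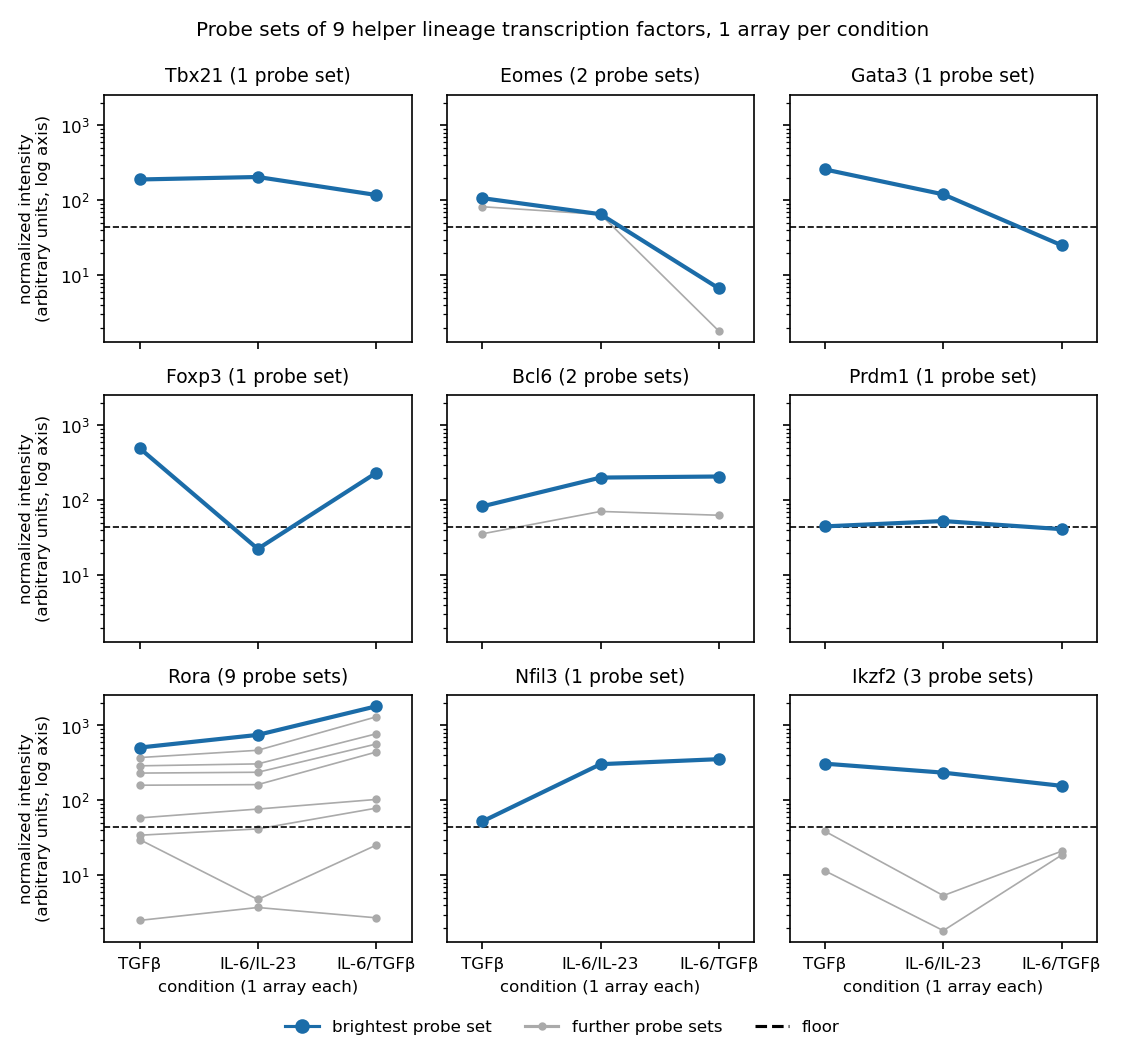
Normalized intensity (log axis, arbitrary units) of every probe set of the 9 factors on the 3 arrays; lines join the values of 1 probe set, blue for the brightest and grey for the others, and the dashed line is the floor at 44.3. Rora was highest with IL-6/TGFβ on its 7 probe sets above the floor. Foxp3 was under the floor only with IL-6/IL-23, and Gata3 and Eomes were so only with IL-6/TGFβ.

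Tbx21 encodes T-bet and was deleted in these mice. Its 1 probe set was deposited at 265, 143 and 122, and read 189.7, 205 and 118 after normalization. It was thus above the floor on all arrays and lowest with IL-6/TGFβ (-0.69 on the log2 scale over TGFβ and -0.80 over IL-6/IL-23), without reaching 2-fold, except over TGFβ without scaling (-1.12). Which part of the gene was removed is not in the labels, so this signal does not check the deletion, and the values say nothing of functional T-bet. Stat6, the other deleted gene, was above the floor as well, with its brighter probe set at 259, 191 and 223.

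Eomes encodes the T-box factor of cytotoxic and memory T cells, related to T-bet. It was low in all conditions and below the floor with IL-6/TGFβ. Its brighter probe set read 107, 65.3 and 6.69, and the other 82.1, 64.8 and 1.80. Both probe sets had the same order. For the brighter one, IL-6/TGFβ lay at least 2.41-fold below TGFβ. The other lay at least 1.85-fold below, and both were near the floor on the IL-6/IL-23 array. The floor sets this bound: with it at the 99th percentile of the same background probe sets, the log2 ratio was -0.24 and the call was lost.

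Markers of CD8 T cells and NK cells were set beside Eomes, since those cells carry it. Of 7 measured, 2, 2 and 3 were above the floor, with summed intensities of 359, 367 and 296. Cd8a read 145, 119.7 and 80.2, lowest where Eomes was, and Cd8b1 read 140.0, 174 and 104. Klrd1, a further marker of this list, went the other way. It read 19.4, 26.1 and 53.0, above the floor only with IL-6/TGFβ, where Eomes was lowest. The NK marker Ncr1 was under the floor on every array, at 2.03, 1.72 and 0.89. The part of such cells in the Eomes values was not tested.

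Several genes tied to T-bet and Eomes were highest on the IL-6/IL-23 array. Of 9 read, 4 were higher there than with TGFβ and 0 lower (median 0.93), though without scaling 2 were higher and 2 lower. With IL-6/TGFβ, 5 were lower than there and 0 higher, with a median log2 ratio of -1.19 beside -0.04 over all genes. Of 8 read, 3 were lower without scaling (median -0.68) and 4 with housekeeping scaling (-0.90), with 0 higher in both. The medians of all genes above the floor on both arrays then lay at 0.43 and 0.27. Gzmb, the cytotoxic protease granzyme B, read 221, 2392 and 87.2. Cxcr3, a chemokine receptor of Th1 cells, read 107, 561 and 136, and Ifng, the gene of interferon-γ, read 125, 229 and 74.0. Stat4, which carries the IL-12 and IL-23 signals, read 386, 1171 and 467. Ifng was 2-fold apart only between the IL-6 arrays, and its deposited value was highest with TGFβ (177, 161 and 76.9). Gzmb, Cxcr3 and Stat4 were highest on an array where the Tbx21 probe signal was at nearly its TGFβ level (a log2 ratio of 0.11). That ratio turned to -0.89 without scaling, where the median of all genes lay at -0.86. Tbx21 was deleted in these mice, so its signal says nothing of functional T-bet. Over TGFβ, IL-6/TGFβ gave 2 lower genes of 8, Gzmb (-1.34) and the IL-18 receptor gene Il18r1 (-1.20), and 1 higher, Runx3 (1.06). Runx3 was under 2-fold with median scaling (0.93), housekeeping scaling (0.96), no scaling (0.58) and averaged probe sets (0.81).

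Gata3, the Th2 factor that T cells also need for their development, had the lowest level with IL-6/TGFβ. Its 1 probe set was deposited at 359, 82.0 and 27.1 and read 258, 120.1 and 25.2, the last below the floor. IL-6/TGFβ lay at least 5.82-fold below TGFβ and at least 2.71-fold below IL-6/IL-23, and IL-6/IL-23 lay 2.15-fold below TGFβ. Of the 9 factors, only Gata3 lay 2-fold or more below both other arrays with IL-6/TGFβ, which held for 0.748% of 10029 genes. The difference from IL-6/IL-23 rested on scale and floor: it was -0.75 (log2) without scaling and -0.41 with the floor at the 99th percentile, under 2-fold in both.

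Most named genes of the Th2 programme did not share the order of Gata3. Il4 and Il13, the Th2 cytokine genes, were highest with IL-6/IL-23, at 108, 368 and 199 for Il4 and 32.1, 253 and 9.37 for Il13. Il5, a further cytokine gene of the Th2 locus, was above the floor only there, at 113. Zfpm1, which encodes the GATA partner FOG-1, did have the order of Gata3, with 200.3, 133 and 62.3. Of 10 Th2 genes read over IL-6/IL-23, 3 were higher with IL-6/TGFβ and 3 lower, and the median was -0.58. The counts were 2 and 4 with median scaling, and 4 and 1 with housekeeping scaling and without scaling. The higher ones were Maf (3.65), Il4ra (1.06), which encodes an IL-4 receptor chain, and the chemokine receptor gene Ccr8, by at least 12.1-fold. Over TGFβ, 2 of 8 were higher, Maf (2.09) and Il4ra (1.89), and Zfpm1 was lower (-1.68), with a median of 0.45. With IL-6/IL-23 over TGFβ, 4 of 10 were higher and 2 lower (median 0.80), a balance that turned with housekeeping scaling (2 and 4) and without scaling (1 higher and 4 lower of 11 read).

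Foxp3, the factor that defines regulatory T cells, was higher on both arrays with TGFβ than with IL-6/IL-23. Its 1 probe set was deposited at 687, 15.4 and 237 and read 498, 22.5 and 232. Both conditions with TGFβ were above the floor and the one without it was below. That condition was also the only one with IL-23, so lack of TGFβ and presence of IL-23 cannot be told apart. The level with IL-6/IL-23 lay at least 11.2-fold below TGFβ and at least 5.24-fold below IL-6/TGFβ. IL-6 beside TGFβ went with a 2.15-fold lower level than TGFβ alone (-1.10 on the log2 scale). Foxp3 was the only one of the 9 at least 2-fold higher on both TGFβ arrays than on the IL-6/IL-23 array, a pattern of 1.55% of 10029 genes. The starting cells were CD25-, which leaves out cells that carried CD25 before culture.

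Ikzf2 encodes Helios, an Ikaros family factor found in many regulatory T cells. Its brightest probe set read 309, 235 and 156. Set against IL-6/IL-23, its log2 ratio with IL-6/TGFβ was -0.58, but -0.04 without scaling and -0.19 with housekeeping scaling. The log2 ratio over TGFβ of -0.98 stopped just short of 2-fold. After median or housekeeping scaling it was past 2-fold, at -1.06 and -1.03. The 2 other probe sets were below the floor on all arrays. Ikzf2 therefore differed from Foxp3 on the IL-6/IL-23 array, where it stayed above the floor.

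Of 13 regulatory T cell genes, 8 were lower and 2 higher with IL-6/IL-23 than with TGFβ (median -1.39 beside 0.06 over all genes). Nt5e and Entpd1, the enzymes that turn extracellular ATP into adenosine, read 498, 43.0 and 456 (Nt5e) and 214, 33.6 and 371 (Entpd1). Both were under the floor with IL-6/IL-23. Socs2, a signalling inhibitor, read 3199, 220.2 and 1379. Gpr83 read 518, 155 and 495. Set against IL-6/IL-23, 5 of the 13 were higher with IL-6/TGFβ and 3 lower (median 0.79), or 6 and 0 without scaling and 7 and 1 with housekeeping scaling. With IL-6/TGFβ over TGFβ, 1 was higher, the inhibitory receptor Ctla4 (1.36, but 0.88 without scaling), and 3 were lower (median -0.13). The 3 lower genes were the semaphorin receptor Nrp1, at 667, 94.7 and 52.4, Tnfrsf18 (-1.39) and Socs2 (-1.21). Without scaling, 0 were higher and 5 lower. Nrp1 thus stood apart from Foxp3, since it was low on both arrays with IL-6.

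Myeloid markers also differed between these arrays. Of 7 measured, 2, 0 and 1 were above the floor, with summed intensities of 283, 128 and 193, and Lyz2 and Cd14 were below it throughout. Mpeg1, a macrophage gene, read 153, 21.9 and 25.7, highest on the TGFβ array as Foxp3, Gata3 and Eomes were. Csf1r, the other myeloid marker above the floor on any array, went another way. It read 63.2, 40.1 (below the floor) and 79.4, highest with IL-6/TGFβ, where Gata3 and Eomes were below the floor. The part of myeloid cells in the Foxp3, Gata3 and Eomes values was not tested.

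**Figure D2:**
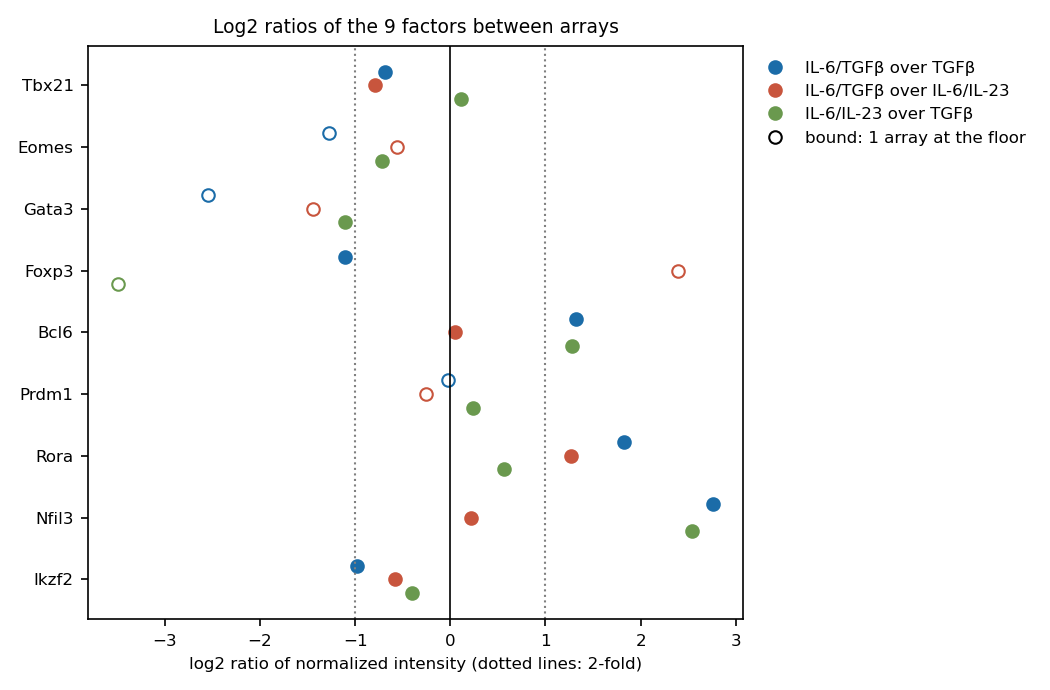
Log2 ratio of normalized intensity for each factor in the 3 comparisons (colours); open circles are bounds, with 1 array at the floor, and dotted lines mark 2-fold. Gata3 at -2.54 (a bound) and Nfil3 at 2.76 lie at the ends for IL-6/TGFβ over TGFβ, and Foxp3 has opposite signs over IL-6/IL-23 (2.39) and over TGFβ (-1.10).

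Bcl6 encodes the repressor that directs follicular helper cells, and Prdm1 encodes Blimp-1, which opposes it. Bcl6 was higher on both arrays with IL-6. Its brighter probe set was deposited at 118, 140.2 and 213 and read 83.1, 201 and 208. That was 2.50-fold above TGFβ with IL-6/TGFβ and 2.42-fold with IL-6/IL-23, and the IL-6 arrays differed from each other by 0.05 on the log2 scale (0.61 without scaling and 0.45 with housekeeping scaling, past the probe-set spread). The other probe set read 35.8, 71.2 and 63.3, below the floor with TGFβ, so its difference was a bound of at least 1.43-fold and 1.61-fold. Bcl6 depended on scaling. Without any, its log2 ratio was 0.86 for IL-6/TGFβ and 0.25 for IL-6/IL-23, and with housekeeping scaling the latter was 0.78. Set against the median of all genes, which then lay at -0.42 and -0.86, the unscaled values were 1.28 and 1.10.

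Prdm1 stayed near the floor, with deposited values of 63.8, 35.3 and 43.7 and normalized values of 45.0, 53.0 and 41.3. Its 1 probe set did not allow a difference between conditions to be read. Markers of plasma cells, which need Blimp-1, were mixed: of 4 measured, 1, 2 and 3 were above the floor. Jchain read 21.2, 37.3 and 58.6, above the floor only with IL-6/TGFβ. Sdc1 read 19.9, 84.1 and 54.4, and Xbp1 read 4596, 3129 and 4639. Tnfrsf17 was below the floor on all arrays.

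Nfil3 encodes a basic leucine zipper repressor that acts in cytokine gene control and in the circadian clock. Its 1 probe set was deposited at 74.7, 216 and 359 and read 52.3, 304 and 355. It was close to the floor with TGFβ alone and well above it on both IL-6 arrays. The ratio over TGFβ was 6.79-fold with IL-6/TGFβ and 5.82-fold with IL-6/IL-23. The IL-6 arrays differed from each other by 0.22 on the log2 scale, less than the probe-set spread, but by 0.73 without scaling and 0.57 with housekeeping scaling. Nfil3 and Bcl6 were the 2 factors at least 2-fold higher on both IL-6 arrays than with TGFβ, which held for 0.907% of 10029 genes. Nfil3 passed 2-fold in both under each of the 7 other ways of scaling, setting the floor or joining probe sets.

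Because IL-6 signals through STAT3, the sequences upstream of these genes are shown with matches to TTCNNNGAA, a sequence STAT dimers bind, which reads the same on both strands. RefSeq (GRCm38.p6) gave windows for 8 of the 9 factors, 10 windows in all, each cut to the 250 bases before a transcript start. Capitals mark each match. Bcl6 has 2 starts, with 1 match at chr16:23988853-23989102 and 3 matches at chr16:23981284-23981533 (both minus strand). Nfil3, at chr13:52981040-52981289 (minus strand), has none. Foxp3, which was lower on both IL-6 arrays than with TGFβ, has none before its first start and 1 at chrX:7580233-7580482 (plus strand).
Bcl6, first start: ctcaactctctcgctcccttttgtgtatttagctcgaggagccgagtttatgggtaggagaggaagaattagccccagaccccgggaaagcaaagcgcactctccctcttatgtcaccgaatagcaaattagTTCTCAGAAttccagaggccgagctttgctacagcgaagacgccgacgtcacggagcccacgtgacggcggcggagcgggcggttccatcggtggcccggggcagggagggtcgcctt
Bcl6, second start: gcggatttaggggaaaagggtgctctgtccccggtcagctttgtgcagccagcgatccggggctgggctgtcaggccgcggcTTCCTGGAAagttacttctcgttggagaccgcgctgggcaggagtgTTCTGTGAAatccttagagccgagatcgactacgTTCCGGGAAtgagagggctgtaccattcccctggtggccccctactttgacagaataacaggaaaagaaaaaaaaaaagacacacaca
Nfil3: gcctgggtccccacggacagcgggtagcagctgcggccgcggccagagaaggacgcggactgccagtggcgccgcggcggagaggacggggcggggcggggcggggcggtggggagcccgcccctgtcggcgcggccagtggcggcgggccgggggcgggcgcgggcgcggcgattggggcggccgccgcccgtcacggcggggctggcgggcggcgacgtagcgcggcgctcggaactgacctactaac
Foxp3, second start: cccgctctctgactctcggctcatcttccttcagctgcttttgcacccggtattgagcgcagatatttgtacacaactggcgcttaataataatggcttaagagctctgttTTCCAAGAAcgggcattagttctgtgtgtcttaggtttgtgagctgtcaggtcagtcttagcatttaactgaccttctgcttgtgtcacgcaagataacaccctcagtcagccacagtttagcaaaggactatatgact

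The 3 matches before the second Bcl6 start were TTCCTGGAA, TTCTGTGAA and TTCCGGGAA, beginning 168, 122 and 88 bases before it. Of 32851 promoter windows of this length, 7.02% held at least 1 match and 9 windows (0.0274%) held 3 or more. The Nfil3 window was 81.6% G and C, against a median of 52.4% over all windows. The BCL6 core TTCCTAGAA, a special case of the STAT letters, was in none of the 10 windows and in 0.35% of all. Neither was the SMAD box GTCTAGAC (0.17% of all), the SMAD-type CAGACA (17.1%), the NFIL3 sites TTATGTAA (0.82%) and TTACGTAA (0.11%), or the T-box site TCACACCT (1.12%). The GATA site AGATAA was before the second Foxp3 start (9.99% of all), the forkhead site GTAAACA before Prdm1 (3.17%), and the ROR core AGGTCA before Nfil3 and the second Foxp3 start (14.0%). Both strands were searched. A match describes letters and does not show that a factor binds there.

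Follicular helper genes did not, as a group, share the order of Bcl6. Of 11 read, 6 were higher and 0 lower with IL-6/IL-23 than with TGFβ (median 1.00), and 4 were higher and 1 lower with IL-6/TGFβ (median 0.00). The 6 became 3 with housekeeping scaling and 2 without scaling, with 0 lower in both. Higher on both were Il21, the cytokine of follicular helper and Th17 cells, at 10.7 (below the floor), 2626 and 2325, Pou2af1 at 178, 699 and 1404, and Tox2 at 45.7, 106 and 801. Tox2 was close to the floor with TGFβ, and its deposited values were 64.9, 72.0 and 798. Without scaling, it was thus nearly the same with IL-6/IL-23 as with TGFβ. Cxcr5, the receptor that leads T cells to follicles, was high only with IL-6/TGFβ, at 64.7, 52.7 and 267. The receptors Btla (1057, 2943 and 727) and Cd200 (758, 1781 and 586) were highest with IL-6/IL-23. Over IL-6/IL-23, IL-6/TGFβ had 3 higher and 3 lower (median -0.48), or 2 and 5 with median scaling.

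Rora encodes RORα, a nuclear receptor of Th17 cells, and was highest where both cytokines of the Th17 protocol were present. Its brightest probe set was deposited at 699.5, 551 and 1777 and read 507, 748 and 1800.5. IL-6/TGFβ lay 3.55-fold above TGFβ and 2.41-fold above IL-6/IL-23. Rora was the only one of the 9 at least 2-fold higher there than on both other arrays, which was so for 1.37% of 10029 genes. IL-6/IL-23 was 1.48-fold above TGFβ (0.56), a difference that turned to -0.34 without scaling, where the median of all genes lay at -0.86.

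With 9 probe sets, Rora was the factor measured most often. Of these, 7 were above the floor on some array, and 6 on all 3. Over TGFβ, 5 of the 7 reached 2-fold with IL-6/TGFβ and none was 2-fold lower, against 2.59% and 2.26% of 17312 probe sets. Their log2 ratios ran from 0.82 to 1.83 with a median of 1.42 and an SD of 0.41. Over IL-6/IL-23, 5 of the 7 reached 2-fold and none was 2-fold lower, against 4.04% and 3.26% of probe sets, and the values ran from 0.43 to 1.48 with a median of 1.27. For IL-6/IL-23 over TGFβ, 6 could be read and they ran from 0.03 to 0.56, with 0 at 2-fold in either direction, against 3.32% and 3.87%. The probe sets of 1 gene share the same RNA and arrays and are not replicates of the condition. The remaining 2 probe sets were below the floor on all arrays, at most at 30.1.

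Genes of the Th17 programme gave the highest medians of the 8 lists for IL-6/TGFβ against either other array. Over TGFβ, of 11 read, 7 were higher with IL-6/TGFβ and 0 lower (median 1.39), or 5 and 0 without scaling. Maf is also on the Th2 list and Il21 on the follicular helper list. Over IL-6/IL-23, 6 were higher and 1 lower (median 1.47). Maf (1031, 351 and 4388) and Ahr (456, 163 and 1861), transcription factors of this programme, were highest with IL-6/TGFβ, as Rora was, but were lower with IL-6/IL-23 than with TGFβ. Tmem176b, a membrane protein gene, read 70.7, 43.3 and 185. Il17a, the main Th17 cytokine, was high on both IL-6 arrays as Nfil3 was, at 498, 3273 and 3211. Ccl20 and its receptor Ccr6 were low with IL-6/IL-23, at 343, 45.4 and 416 and at 548, 125 and 387. With IL-6/IL-23 over TGFβ, 4 were higher and 4 lower (median -0.23).

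Innate lymphoid cells also carry Rora, Gata3 and Nfil3, and their markers differed between the arrays. Of 3 measured, 2, 1 and 2 were above the floor, with summed intensities of 281, 465 and 752. Most of this sum was Il7r, the IL-7 receptor gene that T cells carry as well, at 169, 447 and 676. Kit read 110.1, 16.3 (below the floor) and 75.9, and Ncr1 was below the floor. Their part in the Rora and Nfil3 values was not tested.

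**Figure D3:**
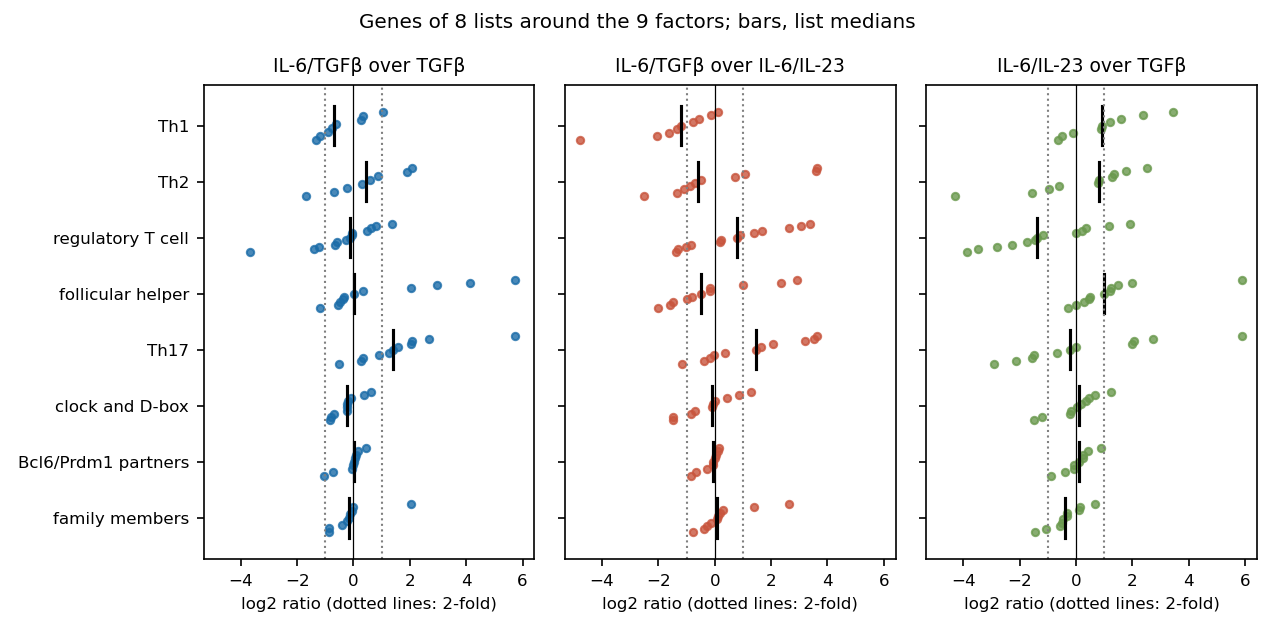
Log2 ratios of the genes of 8 lists around the 9 factors in the 3 comparisons; each point is a gene above the floor on at least 1 of the arrays compared, bounds included, black bars are list medians and dotted lines mark 2-fold. The Th17 list has medians of 1.39 and 1.47 in the comparisons with IL-6/TGFβ, and the regulatory T cell list has -1.39 for IL-6/IL-23 over TGFβ.

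Of 15 relatives of the factors measured, 9 or 10 could be read in a pair, and 1, 2 and 2 were 2-fold apart in the 3 comparisons. Ikzf3, which encodes the Ikaros factor Aiolos, read 327, 221 and 1359, 4.16-fold above TGFβ and 6.15-fold above IL-6/IL-23. Ikzf4, which encodes Eos, a partner of FOXP3, read 426, 157 and 413, higher on both arrays with TGFβ as Foxp3 was, and stands on the regulatory T cell list too. Ikzf1, the founding member, read 2927, 3150 and 2608. Within the Ikaros family, Ikzf3 was thus highest with IL-6/TGFβ and Ikzf4 lowest with IL-6/IL-23. Prdm2 was the other relative that was 2-fold apart, lower with IL-6/IL-23 than with TGFβ (-1.05). Median ratios of the relatives were -0.17, 0.08 and -0.40. For IL-6/IL-23 against TGFβ the count of lower relatives depended on scaling, with 7 of 9 (median -1.40) without any and 3 of 9 (-0.87) with housekeeping scaling. The medians of all genes above the floor on both arrays then lay at -0.86 and -0.33.

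Some genes had nearly the same profile as a factor over the 3 arrays, by the distance between centred log2 values among genes above the floor on the same arrays. With 3 arrays, such a likeness is a description only. Nearest to Nfil3 were Sema4f (distance 0.15), Il17a (0.18) and Sdcbp2 (0.20), of 8686 genes. Nearest to Rora were Igkv8-30 (0.04), Ssh2 (0.08) and Abi3 (0.12), and nearest to Bcl6 were Gsn (0.08), Skap2 (0.09) and Ube2q2 (0.10). Nearest to Foxp3, among 193 genes, were Nt5e (0.80), Anxa3 (0.82) and Ccr8 (0.87), so none was close. Nearest to Gata3, among 185, were Ccl1 (0.25), Calhm6 (0.34) and Zfp365 (0.43). Nearest to Eomes were Cd160 (0.17), Armcx5 (0.20) and Plxnd1 (0.20).

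**Figure D4:**
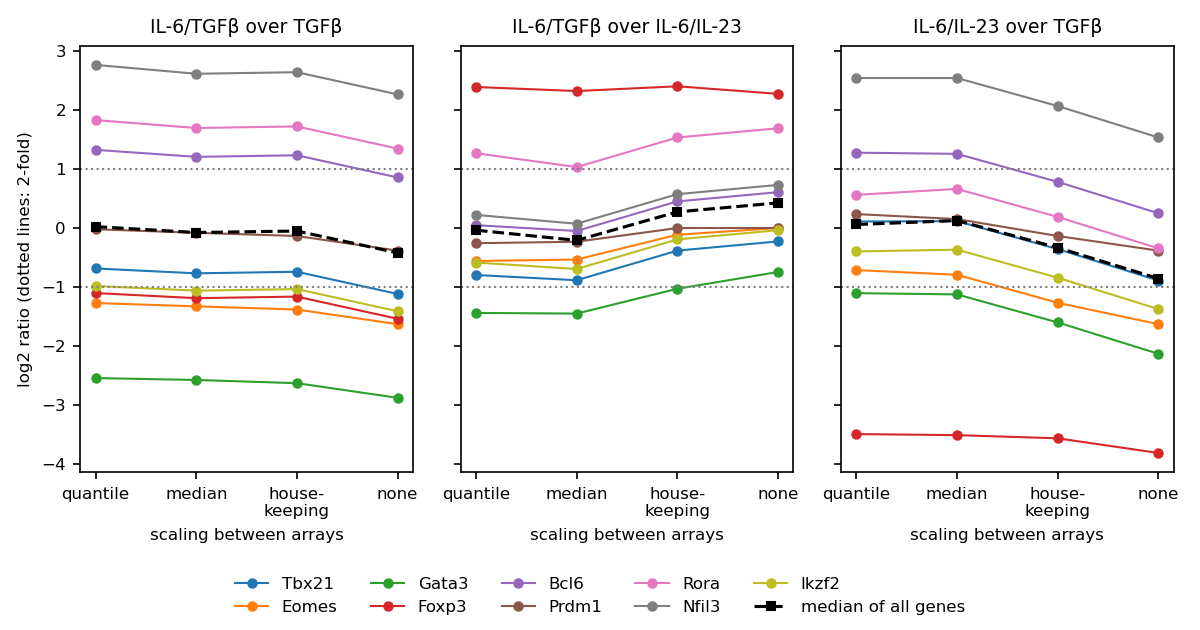
Log2 ratio of each factor under 4 ways of scaling the arrays, for the 3 comparisons, with the median of all genes above the floor on both arrays as black squares; dotted lines mark 2-fold. The factors shift with the median, which reaches -0.86 for unscaled IL-6/IL-23 over TGFβ, and Bcl6 is at 0.25 there.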

How the data were processed

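The authors deposited linear intensities, 1 per probe set and array. Biotin-labelled cRNA was made from total RNA for Affymetrix arrays, per the labels' protocols, and how probes were summarized, background-corrected or scaled is not given in the sources used here. Of 45101 probe sets, 64 controls were left out. Log2 intensities were quantile-normalized (limma 3.58.1, R 4.3.3), which would also remove a true difference in total mRNA. The platform annotation gave 34945 probe sets 1 gene symbol, 932 several (not used) and 9160 none, and RefSeq's gene table renamed 0. Each gene took the values of the probe set brightest on average. As floor served the 95th percentile over 99 probe sets of 65 tissue-restricted genes, and lower values were raised to it. A call needed 2-fold and a brighter array above the floor. This rule was tried on simulated data, with changes planted only in genes well above the floor and noise near the probe-set spread. The trial therefore covers neither values near the floor nor differences between cultures and arrays. With 1 array per condition, the number of arrays limits the precision.

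The members, gene lists, motifs and alternatives were chosen with earlier results of these data known. Named were all members, up to 4 genes past 2-fold per list and comparison, and the 3 genes nearest to each member whose levels spanned at least 1 log2 unit. Some further levels, of list and marker genes and of Ikzf1, were added after their values were seen. The alternatives were median, housekeeping or no scaling, floors at the 90th or 99th percentile, an offset of 16 in place of the floor, averaging all probe sets of a gene, and a 1.5-fold rule.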

Additional observations from a re-analysis of the deposited data

How the results depend on the processing

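Each of the 13 calls of a factor kept its sign under the 7 settings other than the 1.5-fold rule, and no named gene past 2-fold changed sign. All 13 stayed past 2-fold with median scaling, the 90th percentile floor, the offset and the mean of probe sets, 12 with housekeeping scaling, 11 with the 99th percentile floor and 10 without scaling. The calls lost were those of Bcl6, Eomes and Gata3, with values given above. Calls gained were those of Ikzf2 over TGFβ with IL-6/TGFβ (-1.06 with median, -1.03 with housekeeping and -1.41 without scaling) and with IL-6/IL-23 (-1.37 without scaling), and of Tbx21 (-1.12 without scaling). Eomes gained a call between IL-6/IL-23 and TGFβ (-1.63 without and -1.27 with housekeeping scaling) and between the IL-6 arrays (-1.02 with the lower floor and -1.84 with the offset). Of the other genes named, those under 2-fold without scaling also included Stat4 (0.67), Il4 (0.77), Btla (0.58), Cd200 (0.36) and Bhlhe40 (0.39) for IL-6/IL-23 over TGFβ, and Stat4 (-0.87), Il5 (-0.66) and Per1 (-0.93) for the contrast of the IL-6 arrays. Tox2 was under 2-fold without scaling too, for IL-6/IL-23 over TGFβ. Prdm2 was at -0.89 with averaged probe sets. The number of factors apart ranged from 5 to 8, 2 to 4 and 4 to 5 in the 3 comparisons, the 1.5-fold rule included. Without scaling, the share of called genes that were higher was 15.3%, 89.4% and 2.48%, against 55.5%, 51.4% and 52.0%. The median of all genes read on both arrays then lay at -0.42, 0.43 and -0.86. The number of genes 2-fold apart, 497, 770 and 719, was 871, 1284 and 3505 without scaling and 818, 1299 and 1197 with the offset. Housekeeping scaling gave 46.8%, 82.0% and 17.1% higher among called genes, and median scaling 44.1%, 37.5% and 53.9%. No paired analysis was possible because each condition had 1 array, and for the same reason no array could be left out.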

Other observations

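Nfil3 and Rora both act on the circadian clock, and the clock and D-box genes were read beside them. Of 14 measured, 10 could be read in each comparison. With IL-6/TGFβ over TGFβ none was 2-fold apart (median -0.23), although Nfil3 and Rora were. Without scaling, 3 of 11 read were lower and 0 higher (median -0.68). Dbp, a D-box activator whose sites NFIL3 shares, read 103, 24.0 (below the floor) and 59.9, a difference of at least 2.33-fold between IL-6/IL-23 and TGFβ. On the log2 scale it was -1.22, but -0.19 with the floor at the 99th percentile and -0.70 with averaged probe sets, under 2-fold in both. Nr1d2, which encodes the repressor REV-ERBβ, read 386, 139 and 339, and Bhlhe40, a clock repressor induced on T cell activation, read 1650.2, 3884 and 1406. Per1 read 162, 257 and 91.6. Arntl, the clock activator that RORα is known to induce, read 128, 163 and 165, with no ratio past 2-fold.

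Most partners of BCL6 and Blimp-1 were under 2-fold apart after quantile normalization. Of 9 read, 1 was 2-fold apart in any pair, Zbtb32, a repressor of the same zinc finger family as BCL6, at 1069.9, 818 and 512 (-1.06 for IL-6/TGFβ over TGFβ). The corepressor gene Bcor read 1359, 729 and 811. Without scaling, 2 of 9 partners were lower with IL-6/TGFβ than with TGFβ (median -0.43), and 3 of 9 with IL-6/IL-23 (median -0.80). The medians of all genes then lay at -0.42 and -0.86.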
